A study of Mus musculus with 27 samples.

Results

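Oxidative phosphorylation is carried out by 4 respiratory complexes and ATP synthase in the inner mitochondrial membrane, and most of these complexes are assembled from proteins of 2 genomes. The members described here were the protein-coding genes whose symbols mark a subunit of these complexes (Nduf with a subunit letter and number, Sdha to Sdhd, Uqcr, Cox4 to Cox8, Atp5, and the mt-Nd, mt-Co, mt-Cytb and mt-Atp genes), with the Ndufaf assembly factors left out and with at least 10 reads in at least 3 of the 27 libraries. The symbols matched 97 protein-coding genes, and 87 of the 46078 gene rows were members. The nuclear genome encoded 78 of them, with 36 assigned by symbol to complex I, 4 to complex II, 8 to complex III, 13 to complex IV and 17 to ATP synthase (complex V), and the mitochondrial genome encoded 9. The rule used symbols and a count minimum and no expression change, though it was set with earlier results of these data known, and all 87 passed the filter on low counts and were tested.

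The libraries were made from scraped colonic epithelium of male C57BL/6 mice that had been dosed by oral gavage every 4 days for 28 days, 7 gavages in all, from an age of 28 to 56 days. There were 9 groups of 3 mice, which received either sesame oil vehicle or TCDD (the dioxin 2,3,7,8-tetrachlorodibenzo-p-dioxin, which activates the aryl hydrocarbon receptor, AhR) in sesame oil. The 8 doses were 0.01 and 0.03, 0.1 and 0.3, 1 and 3, and lastly 10 and 30 μg/kg. No group carried a genetic change, and scrapings can hold cells from beneath the epithelium. Gene counts ran from 9305441 to 14371035 reads per mouse.

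Complex I (NADH dehydrogenase), complex II (succinate dehydrogenase), complex III (the cytochrome bc1 complex) and complex IV (cytochrome c oxidase) pass electrons from nutrients to oxygen and, apart from complex II, pump protons, and ATP synthase uses the proton gradient to make ATP. Complex II is the only one built from nuclear-encoded proteins alone, and it also catalyses a step of the tricarboxylic acid cycle. Colonocytes oxidise short-chain fatty acids from bacterial fermentation, butyrate above all, in their mitochondria. The mitochondrial genes are transcribed as long polycistronic RNAs by a separate polymerase, so the nuclear and the mitochondrial transcripts of a complex are made by different machinery.

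Several mitochondrially encoded genes had few or no assigned reads, and the sequence of the same genes recurs in the nuclear genome. Every 50-base window of the annotated mt-Co2 transcript also occurred in another annotated gene, and the share of such windows was 99.9% for mt-Co3, 99.5% for mt-Atp6, 98.8% for mt-Nd4l and 98% for mt-Nd3. The matching genes were unprocessed pseudogenes that lie side by side on chromosome 1 of GRCm38, namely Gm28661 for mt-Co2 (chr1:24614885-24615565), Gm28437 for mt-Co3 (chr1:24613189-24613971), Gm10925 for mt-Atp6 (chr1:24613974-24614651), Gm28438 for mt-Nd3 (chr1:24612775-24613119) and Gm10222 for mt-Nd4l (chr1:24612407-24612700). Compared base by base from their first base, mt-Co2 and Gm28661 were identical at 681 of 681 positions, mt-Atp6 and Gm10925 at 678 of 678, mt-Co3 and Gm28437 at 783 of 783, and mt-Nd4l and Gm10222 at 294 of 294. Only mt-Nd3 and Gm28438 differed, at 1 of 345 positions, the substitution T3C counted from 1 at the first base of mt-Nd3. The first 60 bases of this pair are shown because a read from them could be assigned by that base alone, which is the only one in capitals.

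mt-Nd3: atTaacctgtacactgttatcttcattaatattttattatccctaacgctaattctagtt
Gm28438: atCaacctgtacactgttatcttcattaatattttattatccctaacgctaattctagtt

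The stretch of mt-Nd3 lies at chrM:9459-9518 on the plus strand and that of Gm28438 at chr1:24613060-24613119 on the minus strand. Reads with more than 1 alignment, 30.7 to 37.1% of each table's entries, were not assigned to genes. The mean share was 35.1% in vehicle mice, 36.2% at 0.01 μg/kg and 32.4, 32.5 and 31.8% at 3, 10 and 30 μg/kg. Its part in the comparisons between doses was not tested. The genes with near-complete sharing were counted at 0 to 9 reads per mouse for mt-Co2, 1 to 10 for mt-Co3, 0 to 3 for mt-Nd3, 1 to 10 for mt-Nd4l and 10 to 39 for mt-Atp6. Of these, mt-Atp6 was the only one that met the rule for members, and its values are not read here as its expression. The genes with little or no sharing had far higher counts, for example 3277 to 5480 reads for mt-Nd6 (0.0% shared), 31795 to 71313 for mt-Cytb (0.0%) and 23358 to 50336 for mt-Nd1 (0.0%). The share was 51.1% for mt-Co1 and 62.2% for mt-Nd4, so a read lying wholly in such a stretch has more than 1 place to align, in every group. The comparison covered annotated transcripts only.

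**Figure D1:**
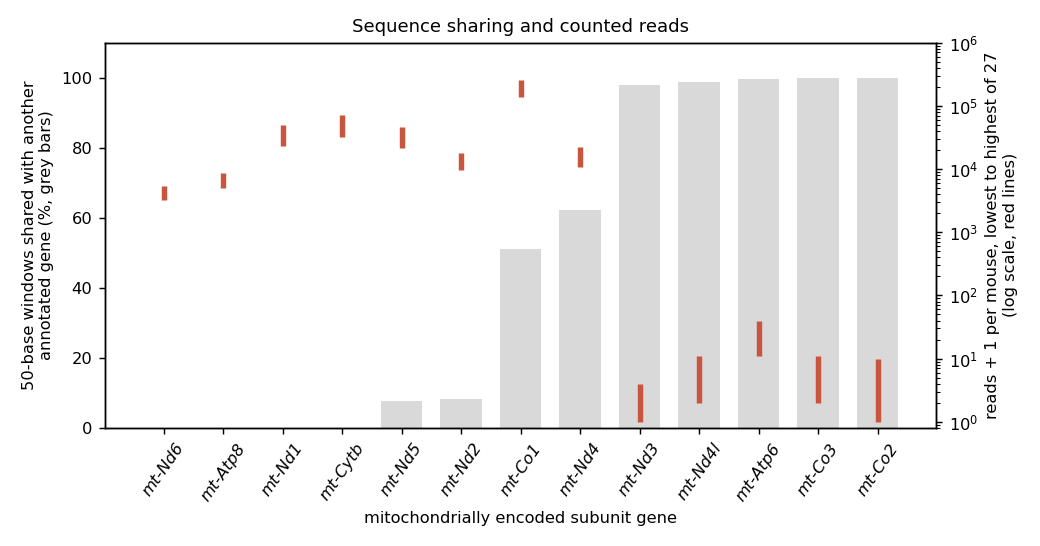
Share of 50-base windows found in another annotated gene (grey bars, left axis, percent) and lowest to highest count over the 27 mice (red lines, right axis, reads plus 1 on a log scale) for the 13 mitochondrially encoded subunit genes. The 5 genes with 98% or more of their windows shared were counted at no more than 39 reads in any mouse, and the other 8 at 3277 reads or more.

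Among the subunits that could be counted, mitochondrially encoded transcripts were the more abundant. Levels between genes are given as CPM (a gene's reads relative to the library total, scaled by the TMM method) per kilobase of annotated exon, averaged over all 27 mice. The level per kilobase was 10686 for mt-Co1, the catalytic subunit of complex IV, 3388 for mt-Cytb, the electron-carrying core of complex III, and 3054 for mt-Nd1 of complex I. It was 2622 for mt-Atp8, 1332 for mt-Nd5, 996 for mt-Nd2, 921 for mt-Nd4 and 699 for mt-Nd6. Among nuclear members the highest level per kilobase was 436 for Cox6a1 in complex IV. The highest in ATP synthase was 319 for Atp5a1, the alpha subunit of the catalytic head of ATP synthase. In the other complexes the highest were 130 for Ndufb9, 129 for Sdhd and 106 for Uqcrfs1, the Rieske iron-sulfur protein of complex III. The lowest in each complex were 5.67 for Ndufb2, 30.2 for Sdhc, 45.6 for Uqcrq, 1.64 for Cox6b2 and 3.12 for Atp5s. The length used joins all annotated exons of a gene, 5628 bases for Ndufb2, and the ranking depends on it. By CPM alone Ndufb2 stood at 31.9 and Ndufs5, also of complex I, at 9.86. The median member stood at the 84th percentile of the genes tested by CPM.

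The isoform pairs of complex IV held the ubiquitous form at the higher level. Cox4i1 had 3287 to 5445 reads per mouse against 0 to 3 for Cox4i2, Cox6a1 had 2633 to 4455 against 0 to 1 for Cox6a2, and Cox8a had 1893 to 3507 against 0 to 3 for Cox8b. Cox6b1 stood at 119 CPM per kilobase and its testis-type isoform Cox6b2 at 1.64. Cox7a2 stood at 116 CPM per kilobase and the heart and muscle isoform Cox7a1 at 24.7. Ndufa4, which the symbol places in complex I although the protein is now assigned to complex IV, had 239 to 606 reads against 0 to 2 for Ndufa4l2. The remaining matching genes below the rule for members, Cox7b2 and Cox8c, had 0 reads in every mouse.

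The summed level of the 78 nuclear members was higher at the upper doses. In the mice given vehicle it was 7615, 8397 and 8358 CPM, and at 30 μg/kg it was 10083, 9932 and 9418 CPM. At 3 μg/kg it was 9700, 9922 and 9739 CPM and at 10 μg/kg 9017, 10148 and 9552 CPM, so all 9 mice at these 3 doses lay above the 3 vehicle mice. At the lowest dose, 0.01 μg/kg, it was 9451, 8413 and 8455 CPM, also above the vehicle mice, with mouse 9, at 9451 CPM, inside the range of the upper doses. That mouse also had smooth muscle and stroma markers at 344 CPM and adipocyte markers at 102 CPM, against at most 150 and 24.0 CPM in vehicle mice. Its colonocyte markers were at 11627 CPM, against at most 9193 CPM in vehicle mice. Mouse 20 at 0.03 μg/kg and mouse 33 at 0.3 μg/kg had smooth muscle and stroma markers at 377 and 397 CPM. Their nuclear sums were 8688 and 8432 CPM, and the part of such markers was not tested. The 9 mice at 0.03 to 0.3 μg/kg ranged from 8089 to 8775 CPM and overlapped the vehicle mice. At 1 μg/kg the level was 9066, 8733 and 9058 CPM, above all 3 vehicle mice.

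The summed level of the 9 mitochondrially encoded members was lower than in vehicle mice at several doses and overlapped with vehicle at the highest. It was 33206, 30979 and 32363 CPM in the vehicle mice and 34418, 29806 and 30427 CPM at 30 μg/kg. At 5 of the 8 doses (0.03, 0.1, 1, then 3 and 10 μg/kg) all 3 mice lay below every vehicle mouse, with a highest value of 30019 CPM over these 15 mice. The lowest group mean was at 0.03 μg/kg, at 25684 ± 1770 CPM (SD, n = 3), with 24634, 24690 and 27727 CPM. The ratio of the mitochondrially encoded to the nuclear sum was 3.97 ± 0.35 (SD, n = 3) in vehicle mice, 3.04 ± 0.15 for 0.03 μg/kg, 2.91 ± 0.21 for 3 μg/kg and 3.22 ± 0.21 for 30 μg/kg. No test was made on these sums, and mt-Co1, which has the highest count, sets most of the mitochondrial one.

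**Figure D2:**
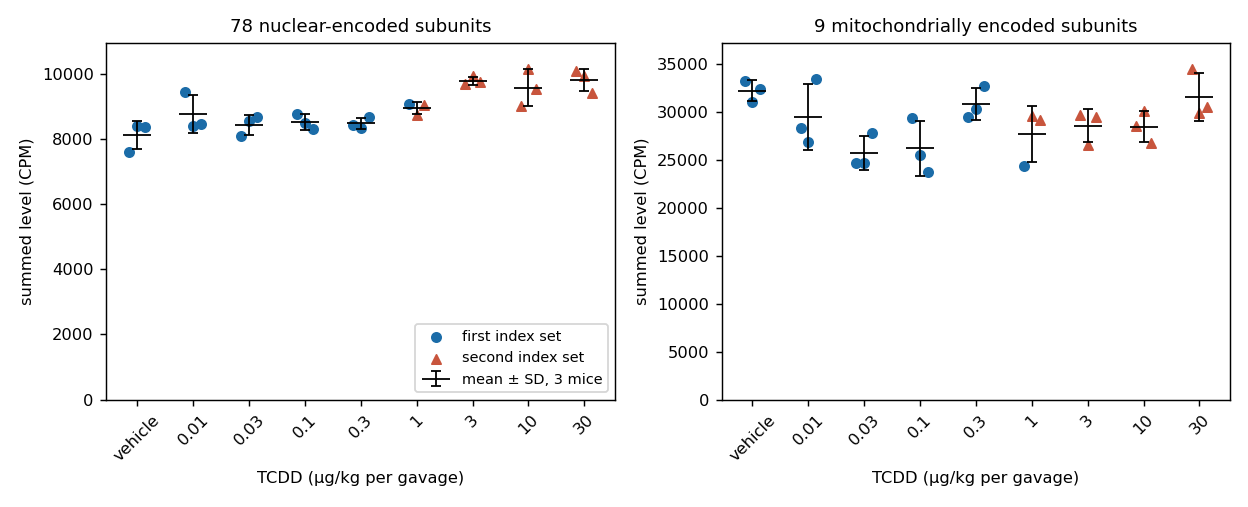
Summed level (CPM) of the 78 nuclear-encoded (left) and the 9 mitochondrially encoded subunits (right) in each mouse by TCDD dose, with mean ± SD of 3 mice. The symbol gives the index set of the library, inferred from reused barcodes. The nuclear sum is above all 3 vehicle mice in the 9 mice at 3, 10 and 30 μg/kg, while the mitochondrial sum at 30 μg/kg overlaps that of the vehicle mice.

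Each dose was compared with vehicle gene by gene with edgeR's quasi-likelihood test, adjusted by the Benjamini-Hochberg method over the 16496 genes tested. The first call asked for an adjusted p below 0.05 together with a 1.5-fold change. By it 0 members were called at 3 μg/kg (0.697% of all genes), 0 with 10 μg/kg (1.78%) and 0 with 30 μg/kg (6.16%), and DESeq2 and limma voom also gave 0 members at these doses. The numbers of members with an unadjusted p under 0.05 were 47, 37 and 46 in that order, of which 46, 36 and 45 were higher. Over all 16496 genes the numbers were 2646, 2936 and 4458. With the adjusted p alone, 27 members were higher and 0 lower at 30 μg/kg, beside 6.00% of all genes higher and 5.02% lower. At 10 μg/kg 14 members were higher and 0 lower (1.85% of all genes were higher), and at 3 μg/kg 19 were higher and 0 lower (0.879%). At 1 μg/kg 0 members passed (0.285% of all genes). An unadjusted p under 0.05 was met there by 17 members, 15 of them higher, and by 1616 of all genes. At each of the 4 lower doses 0 members and 0.00% of all genes passed. From 0.01 to 0.3 μg/kg 16, 8, 11 and 2 members had an unadjusted p under 0.05, of which 16, 3, 6 and 2 were higher. Over all genes the counts were 1047, 766, 1051 and 856 in the same order.

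All of the members that passed were nuclear, and their changes were small. The median log2 fold change of the 78 nuclear members was positive at every dose: 0.10 at 0.01 μg/kg, where 65 of 78 were positive, then 0.05, 0.07 and 0.04 up to 0.3 μg/kg, and 0.12, 0.20, 0.17 and 0.22 from 1 μg/kg to 30 μg/kg, where 73 of 78 were positive. Over all genes tested it was -0.0022 at 30 μg/kg, with 49.6% of them positive. The median of the 9 mitochondrially encoded members was -0.26 at 0.03 μg/kg, was -0.15 and -0.17 for 3 and 10 μg/kg, and was -0.00073 at 30 μg/kg. Without mt-Atp6 the last was 0.0021. These comparisons share the 3 vehicle mice, of which mouse 2 had the lowest nuclear sum, and without it 13 members were higher at 30 μg/kg, beside 3.06% of all genes in the same fit.

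By complex, the median log2 fold change at 30 μg/kg was 0.34 for the 4 subunits of complex II, 0.23 for the 17 of ATP synthase, 0.23 for the 13 of complex IV, 0.20 for the 36 of complex I and 0.18 for the 8 of complex III. The number higher by the adjusted p was 3 of 4, 7 of 17, 4 of 13, 11 of 36 and 2 of 8 in the same order. No difference between complexes was tested.

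**Figure D3:**
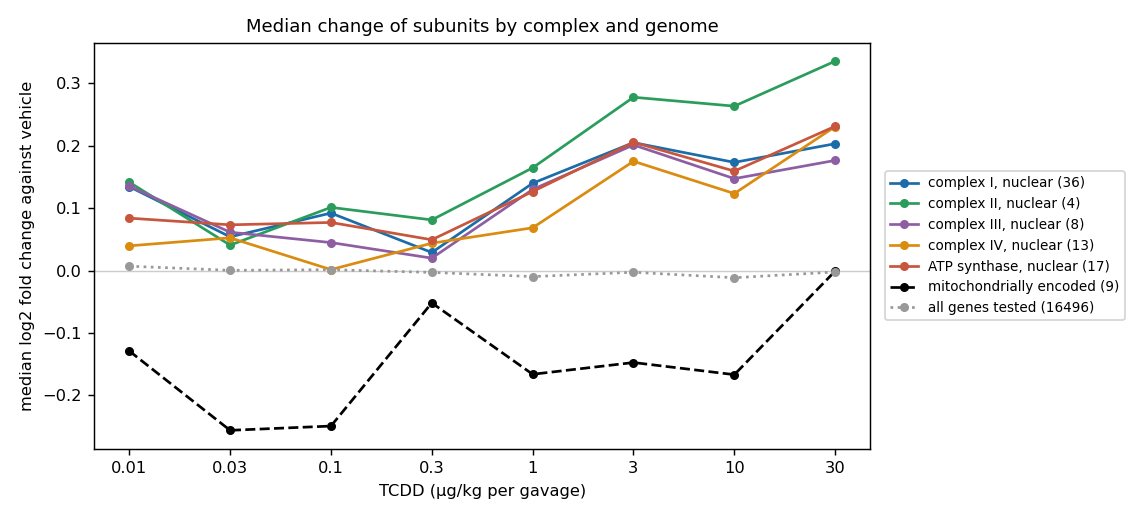
Median log2 fold change against vehicle at each TCDD dose for the nuclear-encoded subunits of each complex, the 9 mitochondrially encoded subunits and all 16496 genes tested (number of genes in brackets). The nuclear lines lie above 0 at every dose, with complex II highest at 0.34 at 30 μg/kg, and the mitochondrial line lies below 0 from 0.01 to 10 μg/kg and at -0.00073 at 30 μg/kg, all without an index set term.

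In ATP synthase, the alpha, beta and gamma subunits of the catalytic head rose at 30 μg/kg. Atp5c1, the gamma subunit that turns inside the head, was at 186, 200 and 209 CPM in vehicle mice and at 260, 269 and 254 CPM at 30 μg/kg, with no overlap (log2 fold change 0.40 ± 0.06 (SE), edgeR adjusted p = 0.00025, n = 3). Atp5a1 was at 798, 894 and 915 CPM in vehicle mice and at 1150, 1211 and 1097 CPM at 30 μg/kg (log2 fold change 0.41 ± 0.07, edgeR adjusted p = 0.0013). Atp5b, the catalytic beta subunit, was at 897, 978 and 952 CPM against 1220, 1267 and 1125 CPM (0.35 ± 0.07, edgeR adjusted p = 0.0032). For all 3 genes every mouse at 3, 10 and 30 μg/kg lay above every vehicle mouse. Mouse 9 at 0.01 μg/kg was at 1050 CPM for Atp5a1 and 1164 CPM for Atp5b, inside the range of these upper doses. Its Atp5c1, at 225 CPM, was below that range. Atp5o, a subunit of the peripheral stalk, was at 105, 117 and 114 CPM against 158, 147 and 137 CPM (0.40 ± 0.07, edgeR adjusted p = 0.00073), and 41.6% of its windows were shared with other annotated genes. Of the genes for the ring of c subunits, Atp5g2 (0.35) and Atp5g3 (0.21) passed and Atp5g1 (0.22, adjusted p = 0.10) did not. With 1 mouse left out the adjusted p reached 0.12 for Atp5g2, which kept its call in 2 of 6 fits, and 0.18 for Atp5g3, which kept it in 1 of 6. The small epsilon subunit of the head, Atp5e, was at 27.1, 26.9 and 24.3 CPM against 28.2, 18.1 and 23.3 CPM, with overlapping groups and a log2 fold change of -0.17 ± 0.14 (adjusted p = 0.46).

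In complex III, Uqcrc1 and Uqcrc2, the core proteins that face the matrix, rose at 30 μg/kg. Uqcrc1 was at 198, 229 and 218 CPM in vehicle mice and at 288, 303 and 284 CPM at 30 μg/kg (log2 fold change 0.44 ± 0.07, edgeR adjusted p = 0.00031), and at 284, 299 and 293 CPM at 3 μg/kg already. Every mouse at 3, 10 and 30 μg/kg was above every vehicle mouse, but at 0.01 to 0.3 μg/kg the range was 223 to 267 CPM. Uqcrc2 had a log2 fold change of 0.35 ± 0.08 (edgeR adjusted p = 0.0050). The other 6 nuclear subunits of the complex did not pass. Among them Uqcrfs1 was at 111, 146 and 135 CPM in vehicle mice and at 146, 173 and 152 CPM at 30 μg/kg, a log2 fold change of 0.27 ± 0.11 (adjusted p = 0.10).

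In complex II, the flavoprotein Sdha, the iron-sulfur subunit Sdhb and the membrane anchor Sdhd rose at 30 μg/kg. Sdha was at 297, 335 and 311 CPM in vehicle mice and at 400, 403 and 382 CPM at 30 μg/kg (log2 fold change 0.33 ± 0.07, edgeR adjusted p = 0.0031). Sdhb was at 110, 133 and 120 CPM against 163, 159 and 142 CPM (0.35 ± 0.08, edgeR adjusted p = 0.0052), and Sdhd at 135, 144 and 153 CPM against 184, 191 and 171 CPM (0.34 ± 0.07, edgeR adjusted p = 0.0033). The groups did not overlap for any of these. Mouse 9 at 0.01 μg/kg, however, had Sdhb at 150 CPM, inside the range at 30 μg/kg. The other membrane anchor, Sdhc, was at 88.2, 91.8 and 90.1 CPM against 97.2, 100 and 98.7 CPM, a log2 fold change of 0.13 ± 0.07 that did not pass (adjusted p = 0.21), although it passed at 3 μg/kg with 107, 110 and 110 CPM (0.28 ± 0.07, edgeR adjusted p = 0.037).

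In complex I, the core subunits Ndufs7 (log2 fold change 0.43) and Ndufs8 (0.29), which carry iron-sulfur clusters, were among those that rose. Ndufs7 was at 44, 57.4 and 50.2 CPM in vehicle mice and at 66.3, 68.3 and 69.7 CPM in those given 30 μg/kg, with no overlap (edgeR adjusted p = 0.0056). Core subunits that did not pass were Ndufs3 (0.31, adjusted p = 0.052), Ndufs1 (0.19, adjusted p = 0.10), Ndufv1 (0.20, adjusted p = 0.15) and Ndufv2 (0.21, adjusted p = 0.11). The largest fitted change of any member at 30 μg/kg was that of Ndufa4, at 25.6, 32.6 and 27.6 CPM in vehicle mice and 43.6, 40.1 and 40.8 CPM at 30 μg/kg (log2 fold change 0.54 ± 0.13, edgeR adjusted p = 0.0086). Without vehicle mouse 2 its adjusted p was 0.053, and without vehicle mouse 3 its log2 fold change was 0.64, past 1.5-fold. Ndufc2, an accessory subunit of the membrane arm, was at 42.3, 48.8 and 55.4 CPM against 69.3, 70.3 and 62.6 CPM (0.47 ± 0.11, edgeR adjusted p = 0.011). With 1 mouse left out the adjusted p reached 0.068 for Ndufc2 and 0.071 for Ndufs8. Ndufb9 was at 112, 120 and 128 CPM against 148, 153 and 150 CPM (0.32 ± 0.07, edgeR adjusted p = 0.0062).

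In complex IV, Cox4i1, Cox5a, Cox7a2 and Cox7a2l passed at 30 μg/kg. Cox7a2l, of the same family as Cox7a1 and Cox7a2, was at 86.3, 91.2 and 81.2 CPM in vehicle mice and at 102, 104 and 109 CPM at 30 μg/kg (log2 fold change 0.28 ± 0.06, edgeR adjusted p = 0.0046). Cox4i1 was at 323, 366 and 347 CPM against 392, 453 and 433 CPM (0.30 ± 0.09, edgeR adjusted p = 0.036). Cox7a2 was at 95.4, 105 and 105 CPM against 127, 119 and 113 CPM (0.23 ± 0.07, edgeR adjusted p = 0.047). Of these 4 only Cox7a2l kept its call in all 6 fits that dropped a single mouse. The adjusted p reached 0.14 for Cox4i1, 0.18 for Cox5a and 0.17 for Cox7a2, whose calls held in 2, 2 and 1 of the 6 fits. Cox6a1 (0.09, adjusted p = 0.46), Cox6b1 (0.06, adjusted p = 0.69) and Cox8a (0.15, adjusted p = 0.18) did not pass.

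**Figure D4:**
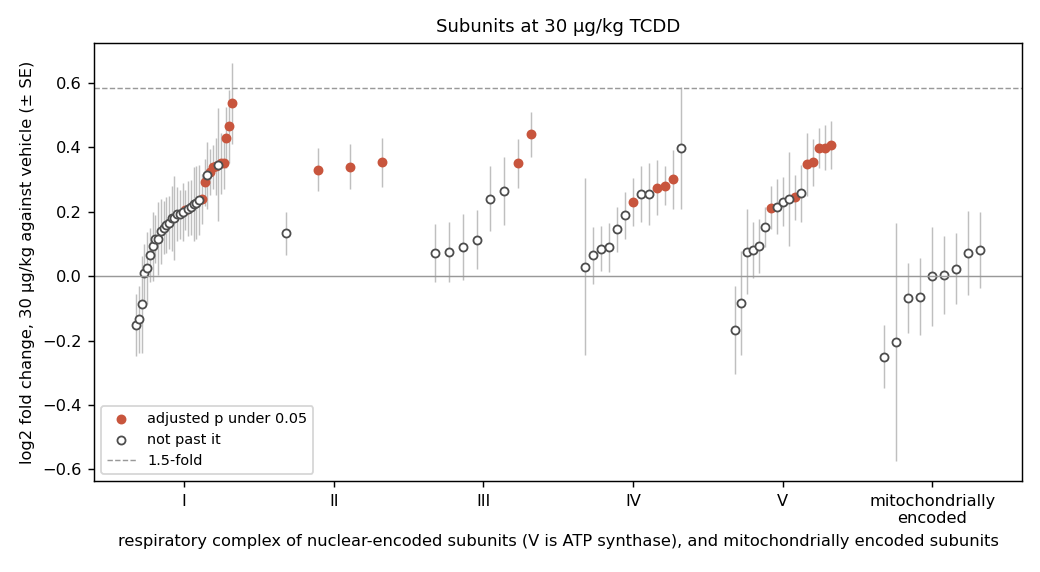
Log2 fold change (± SE) of each of the 87 subunits at 30 μg/kg against vehicle, 3 mice each, by complex for the nuclear-encoded subunits and together for the mitochondrially encoded ones. Filled points mark the 27 with an edgeR adjusted p under 0.05, all nuclear, and none reaches the dashed line at 1.5-fold.

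A linear term over dose rank (vehicle 0 to 30 μg/kg 8), fitted to all 27 mice with the same test, passed the adjusted p with a positive slope for 45 members and with a negative one for 1, beside 11.8% and 11.6% of all genes. Of all 87 fitted slopes 74 were positive. The 45 were 18 of 36 nuclear subunits of complex I, 4 of 4 of complex II, 3 of 8 of complex III, 9 of 13 of complex IV and 11 of 17 of ATP synthase. The 5 steepest were Cox7a1 at 0.061 ± 0.017 log2 units per dose step (edgeR adjusted p = 0.0086), Uqcrc1 at 0.052, Ndufa4 at 0.050, Ndufs7 at 0.050 and Atp5a1 at 0.049. The smallest adjusted p was that of Atp5c1 (0.048 ± 0.006 per step, edgeR adjusted p = 8.8e-07). Cox7a1 has few reads, 81 to 252 per mouse, and was at 12.5, 12.5 and 7.95 CPM in vehicle mice, 15.2, 15.3 and 17.8 CPM at 10 μg/kg and 18.1, 12.3 and 12.9 CPM at 30 μg/kg. Its comparison at 30 μg/kg did not pass (log2 fold change 0.40 ± 0.19, adjusted p = 0.18).

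The 5 most negative slopes were those of Cox6b2, mt-Nd6, Atp5e, Ndufs6 and Atp5s, and mt-Nd6 alone passed. It encodes the only protein on the light strand of the mitochondrial genome. It was at 432, 397 and 387 CPM in vehicle mice, with 321, 324 and 354 CPM for 3 μg/kg, 321, 346 and 351 CPM for 10 μg/kg and 358, 338 and 325 CPM for 30 μg/kg. All 9 mice at the upper doses lay below the vehicle mice, while those at 0.01 to 0.3 μg/kg ranged from 320 to 423 CPM. The slope was -0.027 ± 0.009 per dose step (edgeR adjusted p = 0.023), and at 30 μg/kg the log2 fold change from vehicle was -0.25 ± 0.10 (adjusted p = 0.10). The slope did not pass without vehicle mouse 2 (adjusted p = 0.074) or without mouse 67 at 30 μg/kg (adjusted p = 0.054). Whether strand was used in counting is not given in the sources used here, so reads of mt-Nd6 and of transcripts opposite to it cannot be told apart. The slope of Cox6b2, a gene with 13 to 34 reads per mouse, was -0.062 ± 0.028 (adjusted p = 0.10).

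The other mitochondrially encoded members had slopes between -0.0015 and 0.012 per step, with adjusted p of at least 0.49 by edgeR. mt-Cytb was at 4452, 3869 and 4375 CPM in vehicle mice and at 5128, 3495 and 4065 CPM at 30 μg/kg (log2 fold change -0.00073 ± 0.15). mt-Co1 was at 19080, 18533 and 18136 CPM against 18482, 17823 and 17006 CPM (-0.06 ± 0.12). For both the groups overlapped. mt-Nd1 (0.02 ± 0.11), mt-Nd2 (0.0049 ± 0.12), mt-Nd4 (0.08 ± 0.12), mt-Nd5 (0.07 ± 0.13) and mt-Atp8 (-0.07 ± 0.11) had adjusted p of at least 0.71 at 30 μg/kg. At 30 μg/kg the standard errors of the mitochondrially encoded genes other than mt-Nd6 and mt-Atp6 were 0.11 to 0.15. With a standard error of 0.11 the log2 fold change of 0.47 of Ndufc2 passed, while with one of 0.10 that of -0.25 of mt-Nd6 did not, so a change near the nuclear median of 0.22 was not detectable in a single one of these genes. The median of the 9 at 30 μg/kg moved from -0.13 without mouse 65 at 30 μg/kg to 0.07 without mouse 66.

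**Figure D5:**
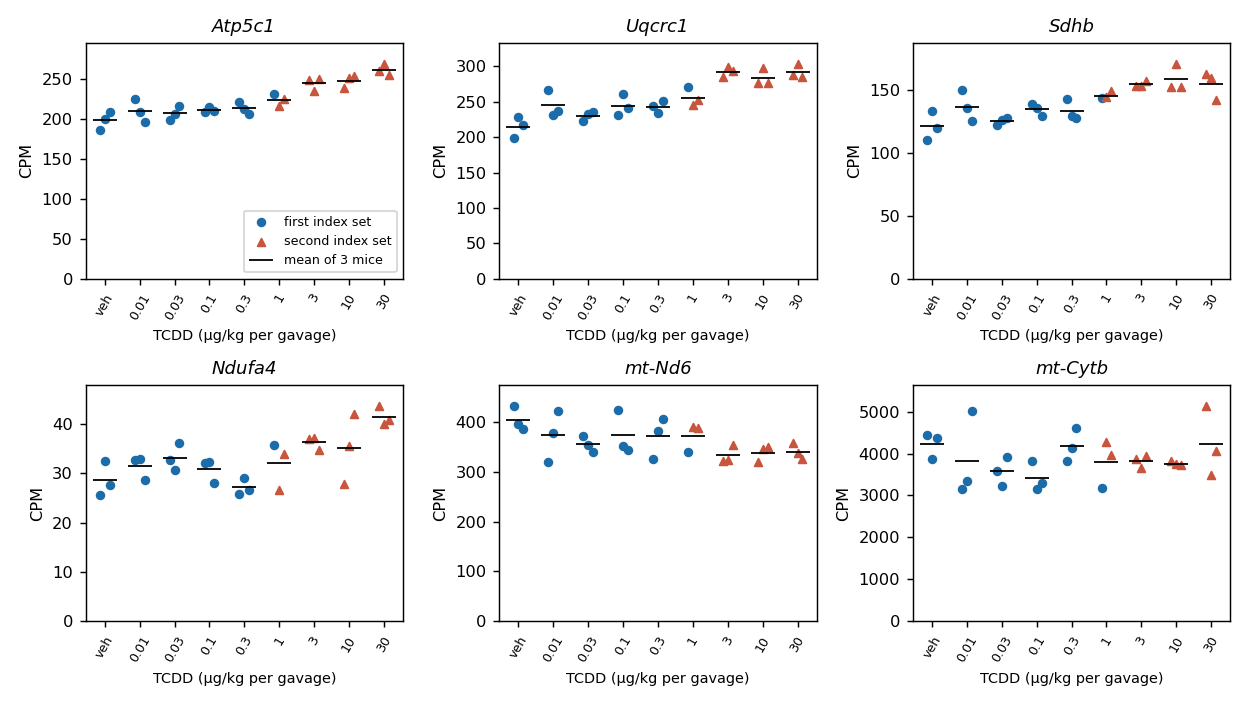
CPM of Atp5c1, Uqcrc1, Sdhb, Ndufa4, mt-Nd6 and mt-Cytb in each of the 27 mice by TCDD dose (veh, vehicle), with the mean of 3 mice as a bar and the inferred index set of the library as the symbol. Atp5c1, Uqcrc1 and Sdhb lie above the vehicle mice in every mouse at 3, 10 and 30 μg/kg, mt-Nd6 lies below them in the same mice, and mt-Cytb overlaps at 30 μg/kg.

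No member was called between 3 and 30 μg/kg. In the contrast of 30 against 3 μg/kg, 0 members passed the adjusted p by edgeR (0.606% of all genes did). An unadjusted p under 0.05 was met by 4 of 87 members, beside 1810 of all 16496 genes. The median of the nuclear members was -0.0042.

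The index barcodes of the libraries started over along the dose series. This touches the comparisons with vehicle and the slopes, but not the contrast of 30 against 3 μg/kg. From the barcodes given with each count table, 2 sets could be told, the first holding 16 mice (those given vehicle or up to 0.3 μg/kg, plus mouse 41 of the 1 μg/kg group) and the second mice 43 and 44 at 1 μg/kg and all mice at 3 to 30 μg/kg, so only the 1 μg/kg group had libraries of both. There the nuclear sum was 9066 CPM in the first set and 8733 and 9058 CPM in the second. When the index set was added to the model, an adjustment identified by those 3 mice alone, 0 members passed with a positive slope (0.0546% of all genes did). By edgeR 0 were higher at 3 μg/kg (0.0121% of all genes), 0 with 10 μg/kg (0.249%) and 6 with 30 μg/kg (2.40%), Atp5c1, Uqcrc1, Atp5o, Sdhd and Ndufa4 among them, with a median for the nuclear members of 0.21. The same term moved the median of the mitochondrially encoded members at 30 μg/kg from -0.00073 to -0.33. Within the first set alone 0 of 87 members had a slope that passed (0.00589% of all genes did) and 5 had an unadjusted p under 0.05. Within the second set 0 passed (3.06% of all genes did) and 11 had an unadjusted p under 0.05, all positive. The share of all genes with an unadjusted p under 0.05 was not counted within the sets. Of the 78 nuclear members 49 had a positive fitted slope in the first set and 59 in the second. Index set and dose cannot be told apart for the doses from 3 μg/kg upward.

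Clock genes moved with dose as well. Dbp, an output gene of the circadian clock, was at 1.37 to 2.00 CPM in vehicle mice, 12.2 to 16.7 CPM at 0.3 μg/kg and 29.4 to 71.5 CPM at 30 μg/kg, and Arntl, a core clock activator in opposite phase, at 54.7 to 79.1 CPM in vehicle mice and 6.47 to 11.4 CPM at 30 μg/kg. One mouse at 0.01 μg/kg, mouse 14, had Dbp at 60 CPM and Arntl at 11.8 CPM, and its nuclear sum of 8455 CPM lay within the range of the other mice at 0.01 to 0.3 μg/kg. The part of the clock in the subunit changes was not tested.

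Markers of colonic epithelium were abundant in every mouse. The summed level of 7 colonocyte markers was 7142 to 12227 CPM and that of 4 goblet cell markers 41087 to 57287 CPM over all mice, and 1 of the 7 and 1 of the 4 were higher at 30 μg/kg. Over dose rank 3 of the 7 colonocyte markers (Krt20, Epcam and Vil1) and 1 of the 4 goblet cell markers passed with a positive slope. Every marker count here stands beside 6.00% of all genes higher at 30 μg/kg and 11.8% with a positive slope. The colonocyte sum was 8928 ± 231 CPM in vehicle mice, 10652 ± 1006 CPM with 3 μg/kg, 10606 ± 1404 CPM with 10 μg/kg and 9194 ± 618 CPM with 30 μg/kg (SD, n = 3). The sum of 8 smooth muscle and stroma markers was 116 to 150 CPM in vehicle mice and 122 to 718 CPM at 30 μg/kg, with 0 of 8 past the adjusted p at 30 μg/kg and 4 of 8 past it with a positive slope. Of 4 adipocyte markers tested 2 were higher, and their sum was 6.40 to 24.0 CPM in vehicle mice and 21.5 to 147 CPM at 30 μg/kg. Of 5 skeletal muscle markers, Acta1 rose from 3.83 ± 1.11 to 142 ± 23.4 CPM (SD, n = 3), and the other 4 were below the filter, with Ckm at 0 to 26 reads per mouse, Myh1 and Tnnt3 at 0 to 1 and Myh4 at 0. The sum of the 5 was 2.56 to 4.71 CPM in vehicle mice and 117 to 162 CPM at 30 μg/kg. The part of these other cell types in the subunit changes was not tested, and in bulk tissue more cells of a type and more RNA per cell cannot be told apart. Cyp1a1, the classic AhR target, was at 0.07 ± 0.06 CPM in vehicle mice and 2200 ± 198 CPM at 30 μg/kg (SD, n = 3; edgeR adjusted p = 2.7e-15).

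Other genes of mitochondrial metabolism were counted by lists at 30 μg/kg with the same test, each beside 6.00% of all genes higher and 5.02% lower. Of 23 genes of the tricarboxylic acid cycle and its entry, 10 were higher and 0 lower, with a median log2 fold change of 0.28. With a positive slope 15 of 23 passed, beside 11.8% of all genes. Of 23 electron carriers and inner membrane carriers 5 were higher and 1 lower (median 0.16). Among these Slc25a4, the heart and muscle type adenine nucleotide translocase, was the only one past 1.5-fold, at 11.3 ± 1.02 CPM in vehicle mice and 20.8 ± 2.59 CPM at 30 μg/kg (SD, n = 3; log2 fold change 0.88 ± 0.19, edgeR adjusted p = 0.0049). Of 50 assembly factors of the complexes 3 were higher and 0 lower (median 0.13), and of 77 mitochondrial ribosomal protein genes 3 were higher and 1 lower (median 0.10). Of 81 cytosolic ribosomal protein genes 29 were higher and 0 lower, with a median of 0.22 on the log2 scale, beside the median of 0.22 for the nuclear subunits. At 3 and 10 μg/kg 0 of the 81 were higher (0.879% and 1.85% of all genes were). Their medians there were 0.06 and 0.02, beside 0.20 and 0.17 for the nuclear subunits.

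Of 15 known regulators of mitochondrial biogenesis 0 were higher and 1 lower at 30 μg/kg by edgeR (6.00% and 5.02% of all genes). Over dose rank 1 passed with a positive and 1 with a negative slope (11.8% and 11.6% of all genes). Those were Ppara, which encodes a fatty acid receptor, at 0.114 ± 0.023 log2 units per dose step (edgeR adjusted p = 0.00056) and Sirt1, a deacetylase, at -0.038 ± 0.011 (edgeR adjusted p = 0.013). At 30 μg/kg Ppara went from 33.7 ± 8.90 to 56.7 ± 8.88 CPM (SD, n = 3; log2 fold change 0.75 ± 0.25, edgeR adjusted p = 0.0502), just short of the threshold. The regulator that was lower at 30 μg/kg was Ppargc1a, the coactivator PGC-1α, from 85.8 ± 7.95 to 57.2 ± 9.87 CPM (SD, n = 3; log2 fold change -0.58 ± 0.16, edgeR adjusted p = 0.021), and its slope over all doses did not pass (-0.021 ± 0.017, adjusted p = 0.41). Ppargc1b (-0.05, adjusted p = 0.79), Esrra, which encodes the receptor ERRα (-0.09, adjusted p = 0.56), and Nrf1 (0.13, adjusted p = 0.42) did not pass. Of 29 genes for the copying and expression of mitochondrial DNA 3 were higher and 1 lower (median 0.07). Tfam, which packages mitochondrial DNA, was at 34.2 ± 2.25 CPM in vehicle mice and 34.3 ± 0.95 CPM at 30 μg/kg, and the mitochondrial RNA polymerase Polrmt (0.24 ± 0.12, adjusted p = 0.22) did not pass.

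Promoters of the nuclear members were searched in RefSeq windows of 300 bases on GRCm38.p6, from 250 before to 50 after the start, for letters known for factors of interest on both strands. A window was found by symbol or gene identifier for 64 of 78 nuclear members, and these were compared with all 27025 genes with a window. The core of the dioxin response element, GCGTG, to which the AhR complex binds, was in 51.6% of the members' windows and in 32.5% of all, with 15 of 36 members that passed with a positive slope and 18 of the 28 others. The NRF1 core GCGCATGC was in 15.6% of members against 2.8% of all, the YY1 core AAGATGGC in 12.5% against 2.9%, the ERR site AAGGTCA in 12.5% against 4.7% and the ETS site of GABPA, CCGGAAGT, in 7.8% against 4.0%. No motif contains another, but an NRF1 core followed by GTG also spells the dioxin core, and a match describes the sequence and not binding.

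The upstream windows of 4 members are shown to set a gene that rose with the dioxin core (Sdhb and Ndufs8) beside one with the NRF1 core that passed on the slope alone (Cox6a1) and one that rose with none of the 5 motifs in the stretch shown (Uqcrc1). They were cut to the bases outside annotated exons, and capitals mark the motif on either strand. The full windows of Uqcrc1 and Sdhb each also hold an NRF1 core, which lies outside the stretch shown and is counted in the shares above.

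Sdhb: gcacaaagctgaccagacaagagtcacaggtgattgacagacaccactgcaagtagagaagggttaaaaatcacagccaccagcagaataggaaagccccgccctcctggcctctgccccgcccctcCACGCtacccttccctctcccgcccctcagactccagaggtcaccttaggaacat
Ndufs8: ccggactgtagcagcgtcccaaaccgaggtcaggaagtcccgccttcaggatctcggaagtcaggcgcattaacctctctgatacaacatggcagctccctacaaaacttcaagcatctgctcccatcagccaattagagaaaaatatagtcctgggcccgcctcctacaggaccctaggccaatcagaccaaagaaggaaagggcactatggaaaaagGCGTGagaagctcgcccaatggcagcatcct
Cox6a1: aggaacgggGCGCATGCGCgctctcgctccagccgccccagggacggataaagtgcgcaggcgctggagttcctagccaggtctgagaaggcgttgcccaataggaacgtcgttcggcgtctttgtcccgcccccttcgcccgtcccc
Uqcrc1: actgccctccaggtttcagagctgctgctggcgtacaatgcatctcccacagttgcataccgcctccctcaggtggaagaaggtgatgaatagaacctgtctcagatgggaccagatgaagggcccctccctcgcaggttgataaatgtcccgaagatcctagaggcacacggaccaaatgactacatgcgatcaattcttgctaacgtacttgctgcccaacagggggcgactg

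These lie at chr4:140961021-140961202 on the plus strand for Sdhb, chr19:3912775-3913024 on the minus strand for Ndufs8, chr5:115348982-115349129 on the minus strand for Cox6a1 and chr9:108936398-108936632 on the plus strand for Uqcrc1. In Sdhb the core is read on the minus strand as CACGC, and in Cox6a1 the capitals hold the NRF1 core on both strands, overlapping.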

How the data were processed

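For each of the 27 mice the authors deposited raw counts by gene identifier, followed by the summary lines of HTSeq. The submitters' processing notes name FastQC 0.11.3, Trimmomatic 0.33, TopHat2 2.1.0, SAMtools 1.2.0, HTSeq 0.6.1, DESeq and the build GRCm38, without saying how each was used. Their gene annotation and strand setting are not given in the sources used here. Summary lines, among them reads in no gene (29.1 to 33.3% of a table), did not enter library sizes. Symbols, positions and exon lengths were taken from GENCODE M21, which named 45229 of 46078 genes.

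Low counts were removed with filterByExpr at a minimum of 10, which left 16496 genes. After TMM scaling, edgeR 4.0.16 (R 4.3.3) fitted all groups in 1 quasi-likelihood model, and a standard error is the size of the log2 change over the square root of F. The steps were tested on simulated data. The labels give each sample its own mouse number. Alternatives were RLE factors, library totals without mitochondrial genes, DESeq2 1.42.0, limma voom 3.58.1 (posterior probability of at least 0.8), no filter, fits of vehicle and 1 dose only, leaving out 1 mouse at a time, an index set term, dose as log10 and, chosen after seeing the data, slopes within 1 index set and limma voom's adjusted p alone.

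The members and gene lists were chosen with earlier results of these data known. Named were the mitochondrially encoded members, the 5 largest slopes in each direction, the highest and lowest member per kilobase of each complex, complex II, the isoform pairs, Slc25a4 as the list gene past the threshold, and 6 regulators. The other members past the adjusted p, core subunits of complex I, 3 colonocyte markers, Ppara, Sirt1, Dbp and Arntl were named after their values were seen, as were the promoters shown. Some items are not reported here.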

Additional observations from a re-analysis of the deposited data

How the results depend on the processing

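The count of members past both thresholds was 0 at 3, 10 and 30 μg/kg, and without the fold threshold it was 19, 14 and 27. The positive direction of the nuclear median at these doses held under every alternative run (0.16 to 0.24 at 30 μg/kg with 1 mouse left out). Counts of members higher by the adjusted p fell to 8 at 3 μg/kg and 6 at 10 μg/kg with no filter on low counts, to 9, 1 and 11 at 3, 10 and 30 μg/kg with only the groups compared, and rose to 23 at 10 μg/kg with DESeq2. By limma voom's adjusted p alone they were 18, 13 and 25. The share of all genes was not counted in these fits, so a change in the members and one in the whole fit cannot be told apart. With 1 mouse left out the count at 30 μg/kg was 13 to 23, and 0 to 1 members passed 1.5-fold. The 13 came without vehicle mouse 2, where 3.06% of all genes were higher. With an index set term the counts were 0 at 3 and 10 μg/kg and 6 at 30 μg/kg, beside 0.0121%, 0.249% and 2.40% of all genes. In that fit 1 member (Ndufa4) passed 1.5-fold at 30 μg/kg, and 0 members passed with a positive slope (0.0546% of all genes did). The mitochondrial medians were -0.45, -0.41 and -0.33. The mitochondrial median at 30 μg/kg ran from -0.13 to 0.072 with 1 mouse left out (-0.060 without vehicle mouse 3). Within index set 1 or 2 alone 0 members passed the adjusted p with a positive slope. Of the 78 nuclear members 68 had a positive slope over all mice, 49 in index set 1 alone and 59 in index set 2 alone. Only some members were checked singly. Among those with a slope that had passed, it reversed without passing for Atp5g3 (-0.0066), Ndufb10 (-0.0017) and Atp5g2 (-0.017) in index set 1 alone. In index set 2 alone it reversed for Sdhc (-0.027). Those 2 settings have fewer mice, and the cause of the other changes was not tested. No paired analysis was possible because the groups share no mouse numbers. With 3 mice a group, standard errors of 0.06 to 0.15 limited what could be seen in most single members.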
